A study of Mus musculus with 27 samples.

Results

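The 44 interferon-stimulated genes described here were taken by symbol from the deposited count table, and all 44 were found among its 23420 genes. They are transcripts that cells are known to raise after interferon has bound its receptor. They were chosen by name, though with earlier results of these data known. For reading, they were grouped by role into 3 transcription factors, 4 sensors of nucleic acid, 8 effectors that bind or degrade RNA, 13 other antiviral effectors, 8 genes of ISG15, ubiquitin and ADP-ribose conjugation, 5 interferon-inducible GTPases and 3 genes of antigen processing.

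The study compared colon and jejunum of C57BL/6 mice, an inbred laboratory strain, after 8 weeks on 15% ethanol (EtOH) or on water (Control). Each segment was sampled as organoids, which are epithelial cultures grown from crypt stem cells by the Sato and Clevers method, and as tissue. The 27 libraries formed 8 groups: EtOH and Control colon organoids (n = 2 each), EtOH and Control jejunum organoids (n = 4 each), EtOH and Control colon tissue (n = 4 each), EtOH jejunum tissue (n = 4) and Control jejunum tissue (n = 3). The mice carried no transgene or deletion that the labels name. The organoid labels give the treatment of the donor mouse, and an ethanol exposure of the cultures themselves is not stated.

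Interferons are secreted by cells that sense foreign nucleic acid. Type I and type III interferons act through receptors whose signal leads STAT2 and IRF9, as parts of 1 complex, to interferon-stimulated response elements (ISREs) in promoters. Interferon gamma acts mainly through gamma-activated sites (GAS). In the intestine, epithelial cells are known to answer type III interferon strongly, and a low tonic level of interferon-stimulated transcripts is known to be kept up by the microbiota in vivo.

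Promoter sequence (250 bases before to 50 after each start site, from RefSeq on GRCm38.p6) was available for 35 of the 44 members. The ISRE core, which is GAAA, any 2 bases and GAAA again, was searched on both strands with overlapping matches merged, and was found in 17 of these 35 members (48.6%), against 1079 of 27025 genes with a promoter (3.99%). TTCNNNGAA, the GAS core, was found in 8 of the 35 (22.9%), against 2582 of the 27025 genes (9.55%), and 5 members held both cores (Eif2ak2, Oas1a, Bst2, Gbp7 and Igtp, named after their matches were seen). The following windows lie wholly upstream of the start site and are shown because they hold the ISRE core of members from several roles that the comparisons turn on. Each is written 5′ to 3′ on the strand of its gene, with the matched letters in capitals (a TTTC form is the core read on the other strand).
Isg15, chr4:156200860-156200911, minus strand: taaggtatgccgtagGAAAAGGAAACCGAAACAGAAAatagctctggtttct
Ifit1, chr19:34640789-34640828, plus strand: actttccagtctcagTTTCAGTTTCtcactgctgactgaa
Ifit3, chr19:34583392-34583431, plus strand: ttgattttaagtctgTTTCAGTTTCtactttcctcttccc
Bst2, chr8:71537572-71537617, minus strand: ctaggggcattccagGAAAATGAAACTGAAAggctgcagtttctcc
Rsad2, chr12:26456548-26456587, minus strand: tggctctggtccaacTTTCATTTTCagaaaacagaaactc
Stat2, chr10:128270261-128270300, plus strand: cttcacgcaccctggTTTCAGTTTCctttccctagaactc
Gbp3, chr3:142559984-142560029, plus strand: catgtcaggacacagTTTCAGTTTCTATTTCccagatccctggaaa

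The run of overlapping cores spans 22 bases in Isg15 and 16 bases in Bst2 and Gbp3, whereas the windows of Ifit1, Ifit3, Rsad2 and Stat2 show 1 core of 10 bases. The promoters of Ifit1 and Ifit3 hold 2 cores each, of which the one nearer the start site is shown. The match begins 78 bases before the start site in Isg15, 85 in Ifit1 and 130 in Bst2. A match describes these letters only, and binding at them was not measured. The ISRE core was not found in the windows of Irf7, Irf9, Oasl2, Psmb8 or Tap1.

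All levels are 3′ tag counts scaled to the library's total outside Rn45s and given as CPM. Rn45s is a ribosomal RNA precursor that took 53.4% to 80.8% of EtOH and 76.3% to 84.3% of Control jejunum tissue libraries and 18.3% to 48.3% of all others. This share thus moves with jejunum tissue, where the members were highest, and its part in the members' levels was not tested. Each transcript gives about 1 tag, so that CPM needs no division by length and levels of different genes can be set side by side. Counts outside Rn45s ran from 684906 in a Control jejunum tissue library to 7606668 in an EtOH jejunum tissue library. Markers of the small intestine summed to 14763.3 to 31806.0 CPM in jejunum tissue and 203 to 1159.9 CPM in colon tissue, and to 3806.7 to 7047.1 CPM in jejunum organoids and 31.9 to 219 CPM in colon organoids. The sum of colon markers was less clear in the Control colon organoids (1107.0 and 3072.4 CPM) against Control jejunum organoids (804 to 1249.0 CPM). Of these markers, Car1 was far apart, at 912 and 1080.4 CPM against 0 to 0.49 CPM. Muc2 overlapped, at 53 and 662 CPM against 52.9 to 168 CPM. The libraries of Control colon organoid 2, EtOH colon tissue 1 and 2 and Control colon tissue 1 stood apart in ways given beside the results they touch.

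Together the 44 members were lowest in jejunum organoids and highest in jejunum tissue. Their summed level was 747 and 765 CPM in EtOH colon organoids, against 677 and 1410.3 CPM in Control colon organoids. In jejunum organoids it was 521, 529, 480 and 444 CPM in the EtOH group, against 504, 571, 430 and 457 CPM in the Control group. The EtOH range lay inside the Control range in both kinds of organoid. Colon tissue held 885, 861, 1080.7 and 1219.9 CPM in EtOH mice, against 1381.1, 1558.1, 1375.9 and 1245.0 CPM in Control mice, so that every EtOH library was below every Control library. Jejunum tissue held 3424.7, 2100.9, 2752.8 and 2309.6 CPM in EtOH mice, against 1842.0, 1969.6 and 2611.2 CPM in Control mice, with overlap. The highest group mean lay in a jejunum tissue group for 27 members, in colon tissue for 11, in colon organoids for 6 and in jejunum organoids for 0. Of those 6, Lgals3bp was highest in the EtOH colon organoids. Eif2ak2, Oas2, Samd9l, Xaf1 and Usp18 were highest in the Control colon organoids, whose libraries disagreed with each other, as given below.

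**Figure D1:**
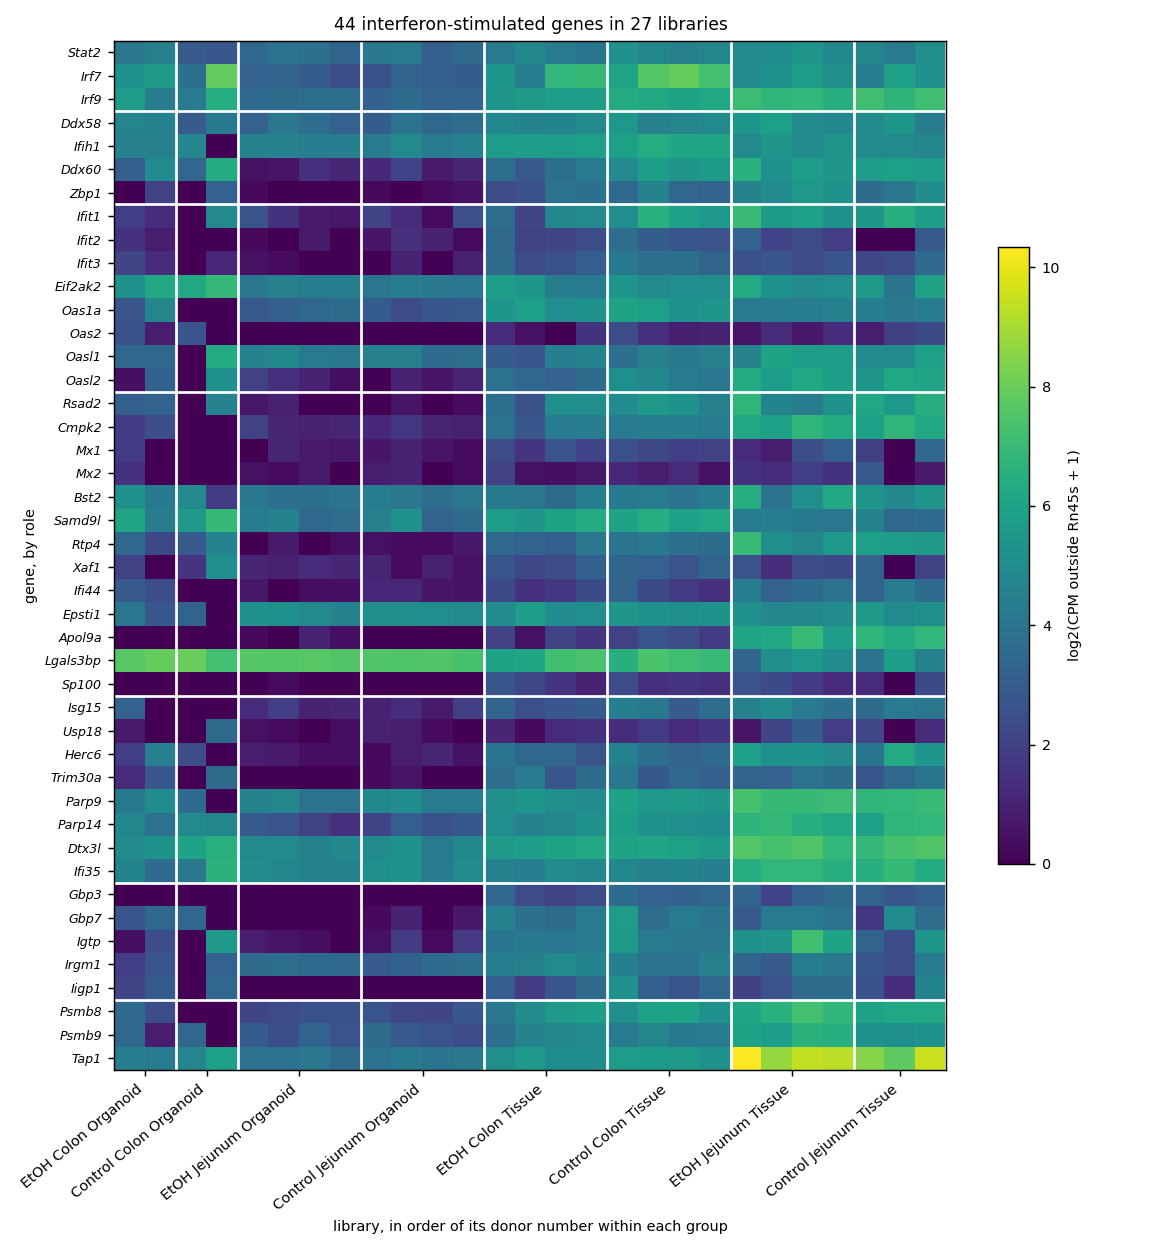
Level of each of the 44 members (rows, by role) in each of the 27 libraries (columns, by group), as log2(CPM outside Rn45s + 1) in colour. Tap1 is brightest in jejunum tissue, Lgals3bp in organoids, and most rows are dark in jejunum organoids, where Iigp1 and Gbp3 had no count.

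The members that carried the sum differed between kinds of sample. Lgals3bp, which encodes a secreted galectin-3-binding glycoprotein, led all 4 organoid groups, and the 3 highest members held 42.5% of the summed level in EtOH and 40.1% in Control colon organoids, and 51.1% in EtOH and 49.1% in Control jejunum organoids. Tap1, a subunit of the transporter that carries peptides to MHC class I, led jejunum tissue, where the 3 highest members held 39.7% in EtOH and 33.7% in Control mice. In colon tissue the lead was Lgals3bp in EtOH mice and Irf7 in Control mice. Of the 44 members, 5 had no count in any EtOH jejunum organoid library (Gbp3, Gbp7, Iigp1, Oas2 and Trim30a) and 5 had none in any Control jejunum organoid library (Apol9a, Gbp3, Iigp1, Oas2 and Sp100), whereas none was at 0 throughout a tissue group.

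**Figure D2:**
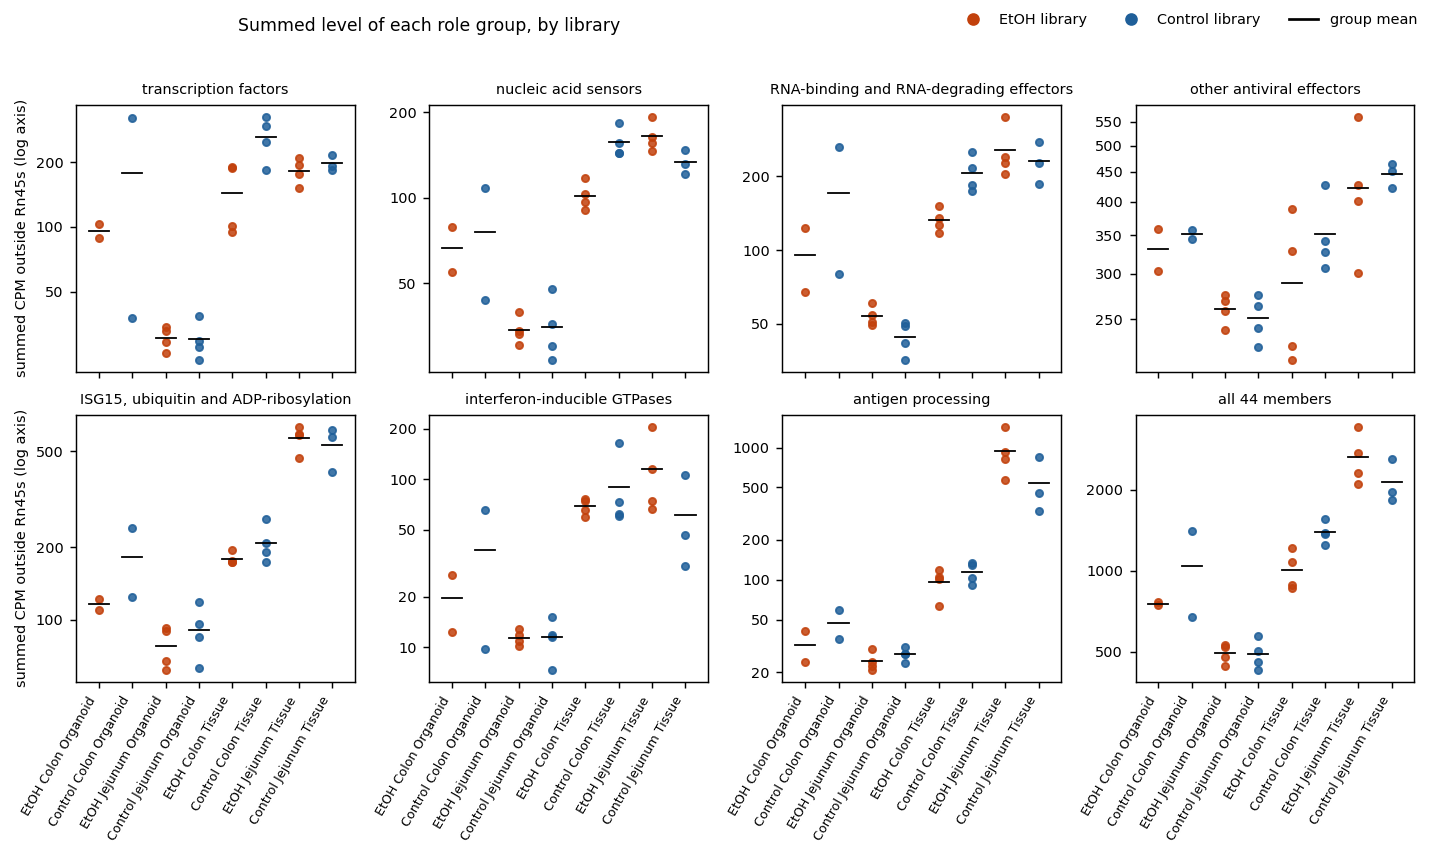
Summed level of each role group and of all 44 members in each library (points) with the group mean (line), in CPM outside Rn45s on a log axis. Every role group is lower in jejunum organoids than in jejunum tissue of the same treatment, and in colon tissue the sensor and RNA effector sums of the EtOH libraries lie below all Control libraries.

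Organoids were compared with the tissue of the same segment and treatment. This sets cultured epithelium against tissue that also held markers of other cell types, as given below. In jejunum, 38 of the 42 members tested were lower in EtOH organoids than in EtOH tissue and 1 was higher, where 35.3% of all 12236 genes tested were lower and 31.7% higher (edgeR's quasi-likelihood test, Benjamini-Hochberg adjusted p under 0.05). In Control mice 35 of 42 were lower and 1 higher, where 31.9% of all genes were lower and 34.1% higher. All 35 lower members of Control mice were among the 38 of EtOH mice. The median log2 fold change of the members was -4.28 in EtOH mice and -3.74 in Control mice, against -0.02 and 0.14 for all genes tested. With the members that had no count in a group set to their bound, the median was -4.28 in EtOH mice and -3.48 in Control mice. Group ranges did not overlap for 35 lower members in EtOH mice and 31 in Control mice, where 25.9% and 24% of all genes did so. Oas2 and Mx2 were too low to be tested, and a member at 0 in organoids passed the filter through tissue alone, so these counts describe the members and test nothing about the list.

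Among the transcription factors, all 3 were lower in jejunum organoids. Irf9, which encodes the DNA-binding partner of STAT2, had 10.6, 11, 12.5 and 12.5 CPM in EtOH organoids, against 137, 107, 116 and 90.7 CPM in EtOH tissue. In Control mice it had 8.29, 11.8, 8.72 and 9.34 CPM in organoids, against 144, 105 and 144 CPM in tissue. All organoid libraries were below all tissue libraries, with log2 fold changes (organoid over tissue) of -3.55 ± 0.21 in EtOH mice and -4.02 ± 0.22 in Control mice (SE; edgeR adjusted p = 1.04e-11 and 5.63e-12). Irf7, the factor that amplifies type I interferon transcription, had 8.45, 9.36, 7.25 and 4.65 CPM in EtOH organoids, against 29.1, 37.7, 51 and 33.3 CPM in EtOH tissue. Its Control organoids had 4.97, 8.82, 7.8 and 7.39 CPM, against 19.6, 59.9 and 36.4 CPM in Control tissue. The ranges were apart in both, with log2 fold changes of -2.62 ± 0.31 and -2.57 ± 0.34 (edgeR adjusted p = 2.12e-07 and 1.34e-06). Stat2, the STAT partner of IRF9, changed least of the 3. It had 10.2, 14.2, 13.2 and 9.02 CPM in EtOH organoids, against 28.6, 31.6, 41.7 and 27.2 CPM in EtOH tissue, and 16.4, 18.4, 7.8 and 11.1 CPM in Control organoids, against 27.6, 19 and 35.1 CPM in Control tissue. No organoid library reached its tissue range, and the log2 fold changes were -1.76 ± 0.29 and -1.28 ± 0.33 (edgeR adjusted p = 1.81e-05 and 0.00173).

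All 4 sensors of foreign nucleic acid were lower in EtOH jejunum organoids and 3 of 4 in Control ones. Zbp1, a sensor of left-handed nucleic acid, had 0.197, 0, 0 and 0 CPM in EtOH organoids, against 23.8, 30.3, 45.1 and 37.3 CPM in EtOH tissue. In Control mice it had 0.184, 0, 0.229 and 0.434 CPM in organoids, against 11.6, 16.1 and 31.8 CPM in tissue. It was thus near the limit of detection in all 8 organoid libraries (log2 fold changes -8.74 ± 0.61 and -6.56 ± 0.58, edgeR adjusted p = 1.6e-10 and 4.27e-09). Ifih1, which encodes the long double-stranded RNA sensor MDA5, was kept at a similar order of size. It had 23.8, 23.1, 20.4 and 20.7 CPM in EtOH organoids, against 28.6, 41.7, 30.2 and 40.1 CPM in EtOH tissue, and 18.2, 30.1, 19 and 22.4 CPM in Control organoids, against 29.8, 29.2 and 25.2 CPM in Control tissue. Its ranges were apart in EtOH mice and overlapped in Control mice, with log2 fold changes of -0.97 ± 0.22 and -0.54 ± 0.26 (edgeR adjusted p = 0.000543 and 0.0704). Ddx58 (RIG-I) and Ddx60, a helicase reported as a cofactor of RIG-I-like sensors, were lower in both treatments, Ddx58 by -2.06 ± 0.30 and -1.66 ± 0.34 and Ddx60 by -6.27 ± 0.45 and -5.33 ± 0.43 on the log2 scale.

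Of the RNA effectors, all 7 tested were lower in EtOH organoids and 6 of 7 in Control ones, where Ifit2 missed the threshold at -1.85 ± 1.02 (edgeR adjusted p = 0.114). Ifit1, which binds RNA lacking the cap methylation of host transcripts and whose ISRE window is printed above, had 5.5, 1.83, 0.659 and 0.582 CPM in EtOH organoids, against 132, 49.1, 59.6 and 36 CPM in EtOH tissue. Control organoids had 3.32, 1.47, 0.229 and 4.78 CPM, against 43.5, 90.5 and 54.3 CPM in Control tissue. Every organoid library was below every tissue library (log2 fold changes -5.08 ± 0.63 and -4.78 ± 0.65, edgeR adjusted p = 2.43e-06 and 8.09e-06). Oasl2, an oligoadenylate synthetase-like protein, had 2.95, 1.6, 0.989 and 0.291 CPM in EtOH organoids, against 82.4, 49.7, 70.6 and 53 CPM in EtOH tissue. In Control mice it had 0, 0.98, 0.459 and 1.09 CPM in organoids, against 39.9, 70.1 and 64.2 CPM in tissue. The ranges were far apart, with log2 fold changes of -5.57 ± 0.42 and -6.71 ± 0.49 (edgeR adjusted p = 4.04e-10 and 3.65e-10). Eif2ak2, which encodes the double-stranded RNA-activated kinase PKR, was the highest member of this group over all libraries. It had 15.9, 21.5, 19.8 and 20.4 CPM in EtOH jejunum organoids, against 78.6, 37.7, 30.7 and 32.6 CPM in EtOH jejunum tissue, and 15.8, 19.3, 16.7 and 15.6 CPM in Control organoids, against 47.2, 14.6 and 60.9 CPM in Control tissue. Those Control ranges overlapped through the tissue library at 14.6 CPM. The 3′ end of Oas1a shares 43.6% of its 50-base runs with Oas1g and that of Ifit3 19.1% with Ifit3b, so the level of either gene is uncertain.

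Of the 12 other antiviral effectors tested, 9 were lower and 1 higher in each treatment. Rsad2 encodes viperin, which makes a chain-terminating nucleotide, and Cmpk2 is its neighbour on chromosome 12. Rsad2 had 0.59, 0.914, 0 and 0 CPM in EtOH organoids, against 107, 24.4, 19.2 and 37.5 CPM in EtOH tissue. In Control organoids it had 0, 0.49, 0 and 0.217 CPM, against 72.6, 45.3 and 92 CPM in Control tissue. Organoids were thus near 0 in every library (log2 fold changes -6.87 ± 0.70 and -8.72 ± 0.79, edgeR adjusted p = 9.68e-08 and 2.63e-08). Rtp4, an interferon-induced receptor transporter protein, had 0, 0.685, 0 and 0.291 CPM in EtOH organoids, against 130, 34.3, 26.1 and 48 CPM in EtOH tissue, and 0.368, 0.245, 0.229 and 0.652 CPM in Control organoids, against 58.1, 51.1 and 47 CPM in Control tissue. It too lay apart in both treatments (log2 fold changes -7.94 ± 0.63 and -7.19 ± 0.62, edgeR adjusted p = 1.9e-09 and 6.02e-09), with the limit that its annotated span overlaps Masp1 on the other strand. Apol9a, an apolipoprotein L family member of rodents, had 0.197, 0, 0.989 and 0.291 CPM in EtOH organoids, against 65.7, 71.2, 129 and 52.6 CPM in EtOH tissue. It had no count in the 4 Control organoid libraries, against 110, 81.8 and 115 CPM in Control tissue. Against a floor of 3 counts over the Control organoid group it was at least 629-fold lower there, and in EtOH mice the log2 fold change was -8.11 ± 0.49 (edgeR adjusted p = 1.84e-10), but 54.4% of its 3′ runs are shared with Apol9b. Bst2, which encodes tetherin, had 17.3, 12.8, 13.2 and 14.5 CPM in EtOH organoids, against 85.7, 14.1, 32.6 and 74.5 CPM in EtOH tissue, and 19.5, 16.2, 12.4 and 16.1 CPM in Control organoids, against 39.9, 26.3 and 39.7 CPM in Control tissue. Its EtOH ranges overlapped through the tissue library at 14.1 CPM, and the log2 fold changes were -2.10 ± 0.39 and -1.39 ± 0.43 (edgeR adjusted p = 8.21e-05 and 0.00815).

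Lgals3bp was higher in jejunum organoids. It had 197, 192, 201 and 186 CPM in EtOH organoids, against 9.52, 34, 44.3 and 30.8 CPM in EtOH tissue. Control organoids had 183, 180, 185 and 163 CPM, against 14.5, 52.6 and 22.5 CPM in Control tissue. Every organoid library exceeded every tissue library, with log2 fold changes of 2.37 ± 0.31 and 2.49 ± 0.38 (edgeR adjusted p = 1.32e-06 and 1.06e-05). Samd9l and Epsti1 missed the threshold in both treatments. Samd9l, a growth-restraining antiviral factor, gave -0.40 ± 0.38 and 0.15 ± 0.46, and Epsti1, an epithelial-stromal interaction protein, -0.21 ± 0.21 and -0.40 ± 0.24. Epsti1 levels spanned 23 to 37 CPM in EtOH organoids and 26.3 to 36.7 CPM in EtOH tissue.

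In the ISG15 and ubiquitin group, 8 of 8 members were lower in EtOH organoids and 7 of 8 in Control organoids. Isg15 encodes the ubiquitin-like modifier itself and carries the longest ISRE run printed above. It had 1.38, 2.74, 0.989 and 1.16 CPM in EtOH organoids, against 22.4, 30.8, 18.1 and 12.6 CPM in EtOH tissue, and 0.921, 1.47, 0.688 and 2.82 CPM in Control organoids, against 10.9, 17.5 and 15.9 CPM in Control tissue. No organoid library came near its tissue range (log2 fold changes -3.95 ± 0.44 and -3.49 ± 0.49, edgeR adjusted p = 1.05e-07 and 3.06e-06). Usp18, the protease that removes ISG15 and dampens receptor signalling, was rare throughout. It had 0.393, 0.228, 0 and 0.291 CPM in EtOH organoids, against 0.476, 3.45, 7.34 and 2.63 CPM in EtOH tissue, and 0.921, 0.735, 0.229 and 0 CPM in Control organoids, against 3.63, 0 and 1.32 CPM in Control tissue. Its log2 fold change was -3.99 ± 0.92 in EtOH mice and -2.12 ± 1.10 in Control mice, where the ranges overlapped (edgeR adjusted p = 0.000633 and 0.0931). Dtx3l and Parp9, a ubiquitin ligase and its ADP-ribosyltransferase partner, had the highest levels of this group in jejunum tissue. Dtx3l had 28.7, 29.2, 22.1 and 27.3 CPM in EtOH organoids, against 192, 159, 184 and 114 CPM in EtOH tissue, and 29.3, 38, 18.4 and 27.6 CPM in Control organoids, against 118, 162 and 183 CPM in Control tissue. All of its organoid libraries were below the tissue (log2 fold changes -2.87 ± 0.23 and -2.66 ± 0.24, edgeR adjusted p = 9.46e-10 and 6.61e-09).

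The GTPases, which act on vacuoles that hold intracellular microbes, split into 4 members that were lower in both treatments and Irgm1, which missed the threshold in both (-0.57 ± 0.38 and -0.34 ± 0.47). Iigp1 had no count in any of the 8 jejunum organoid libraries, against 2.86, 5.31, 11 and 11.8 CPM in EtOH tissue and 5.08, 1.46 and 24.5 CPM in Control tissue. Against a floor of 3 counts over the organoid group it was at least 41.2-fold lower in EtOH organoids and at least 63.7-fold lower in Control organoids. Gbp3, a guanylate-binding protein whose ISRE run is printed above, was also without a count in those 8 libraries and was at least 41.8-fold lower in EtOH and at least 46.2-fold lower in Control organoids. Igtp had 0.786, 0.457, 0.33 and 0 CPM in EtOH organoids, against 38.1, 40.6, 148 and 63.9 CPM in EtOH tissue, and 0.368, 2.45, 0.229 and 2.39 CPM in Control organoids, against 8.71, 4.38 and 43 CPM in Control tissue. Its ranges were apart in both treatments, at -7.58 ± 0.89 and -4.17 ± 0.85 on the log2 scale (edgeR adjusted p = 1.98e-06 and 0.000504).

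All 3 antigen processing genes, which lie side by side on chromosome 17, were lower in jejunum organoids. Tap1 had 13.4, 13.5, 16.2 and 10.8 CPM in EtOH organoids, against 1303.5, 415, 683 and 618 CPM in EtOH tissue. It had 13.6, 17.1, 14.7 and 16.7 CPM in Control organoids, against 351, 222 and 736 CPM in Control tissue. The lowest tissue library was above every organoid library by a wide gap (log2 fold changes -6.08 ± 0.41 and -5.06 ± 0.40, edgeR adjusted p = 4.04e-10 and 3.62e-09). Psmb8, an immunoproteasome subunit that cuts peptides for TAP1 to carry, had 3.54, 4.11, 4.94 and 4.95 CPM in EtOH organoids, against 64.8, 97.7, 150 and 112 CPM in EtOH tissue, and 5.53, 3.67, 3.44 and 6.08 CPM in Control organoids, against 61.7, 73 and 70.2 CPM in Control tissue. Its ranges were far apart in both treatments (log2 fold changes -4.91 ± 0.29 and -4.05 ± 0.30, edgeR adjusted p = 1.42e-11 and 3.65e-10). Psmb9, the subunit encoded head to head with Tap1, gave -3.88 ± 0.32 and -2.63 ± 0.34 (edgeR adjusted p = 1.44e-09 and 1.04e-06). The start sites of Tap1 (chr17:34187553-34197225, plus strand) and Psmb9 (chr17:34181987-34187764, minus strand) are 226 bases apart in RefSeq, and their genes overlap by their 5′ ends in GENCODE vM21.

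Cell types other than epithelium differed along with these members. The 8 T cell and intraepithelial lymphocyte markers summed to at most 0.659 CPM in EtOH and 0.434 CPM in Control jejunum organoids, with 7 of 8 at 0 in each group (all but Cd160), against 68.6 to 152 CPM in EtOH and 6.53 to 49 CPM in Control jejunum tissue. Macrophage and dendritic cell markers summed to 10.9 to 16 CPM in EtOH and 11.7 to 13.5 CPM in Control organoids, against 146 to 258 CPM in EtOH and 134 to 170 CPM in Control tissue. Smooth muscle and fibroblast markers summed to 0 to 2.31 CPM in EtOH and 0.184 to 4.82 CPM in Control organoids, against 227 to 1341.8 CPM in EtOH and 467 to 1847.0 CPM in Control tissue. Epithelial markers differed less, at 5329.1 to 5941.8 CPM in EtOH and 4942.4 to 6294.7 CPM in Control organoids, against 8304.4 to 11231.6 CPM in EtOH and 8646.4 to 11600.9 CPM in Control tissue. The part of these cell types in the members' difference was not tested, and in libraries made from many cells, fewer cells of a type and less RNA per cell cannot be told apart.

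**Figure D3:**
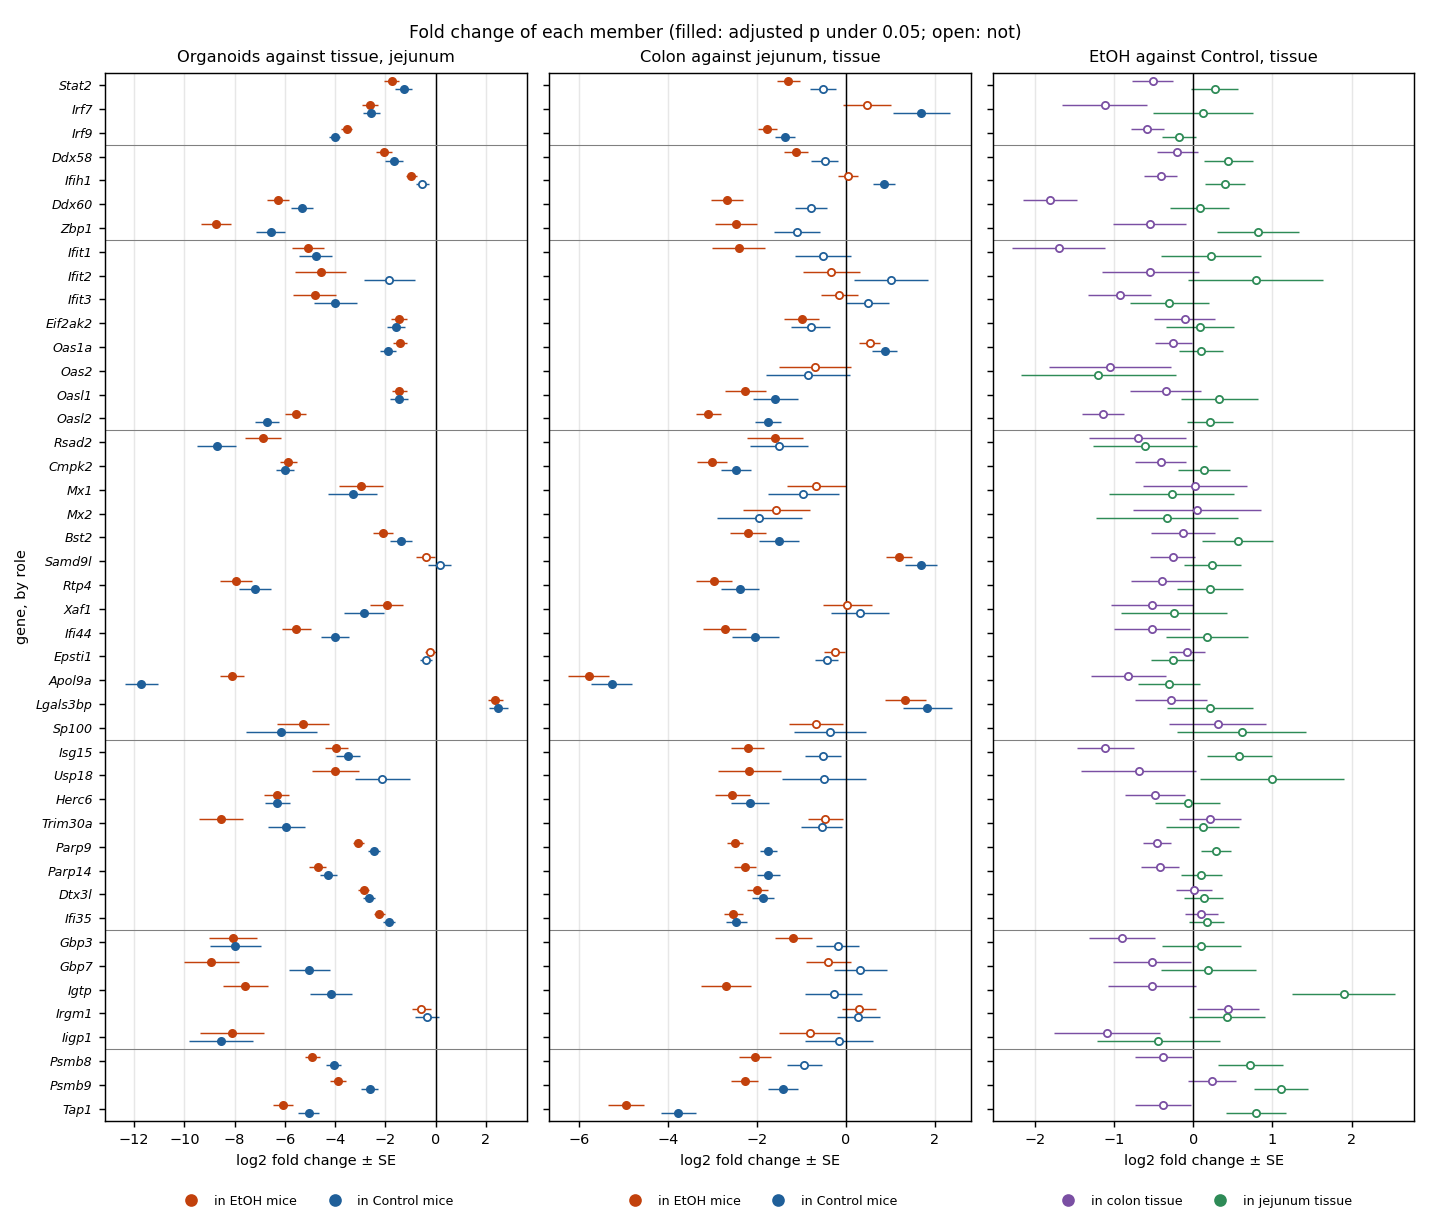
Log2 fold change ± SE of each member tested (rows, by role) for organoids against tissue in jejunum, colon against jejunum in tissue, and EtOH against Control in tissue. Filled points passed an adjusted p under 0.05. Fitted values of members without a count in a group (in the first panel Gbp3 and Iigp1 in both treatments, Gbp7 and Trim30a in EtOH mice, Apol9a and Sp100 in Control mice) depend on the fit's prior count, and Oas2 and Mx2 were not tested there.

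In colon, with 2 organoid libraries a group, fewer members were called between organoids and tissue than in jejunum. The number of calls depends on the number of libraries, so it does not compare the size of the difference. The members' median log2 fold change was -1.05 in EtOH and -2.19 in Control mice, against -0.21 and -0.40 for all genes. With members at 0 in a group set to their bound, the Control median was -1.75. Of the 43 tested, 6 (14%) were lower in EtOH colon organoids than in EtOH colon tissue (Apol9a, Cmpk2, Gbp3, Irgm1, Psmb8 and Sp100), near the 13% of all 14375 genes that were lower. In Control mice 17 were lower, where 26.1% of all genes were, and the 6 members of EtOH mice were all among them. No member was called higher in either treatment by edgeR (at an unadjusted p under 0.05, 0 in EtOH and 1 in Control mice), whereas DESeq2 called 0 in EtOH and Eif2ak2 in Control mice, and limma-voom 0 in both. Psmb8 had 10.5 and 4.46 CPM in EtOH colon organoids, against 16.6, 30.9, 47.3 and 55.4 CPM in EtOH colon tissue. It had no count in either Control colon organoid library, against 34, 59.9, 63.9 and 37.1 CPM in Control colon tissue. Organoids were below tissue throughout, by -2.28 ± 0.65 on the log2 scale in EtOH mice (edgeR adjusted p = 0.0267) and at least 46.4-fold in Control mice. No call in colon was kept under every alternative setting, and limma-voom with a spread per group called 2 members in EtOH and 0 in Control mice. The EtOH colon organoids also held macrophage and dendritic cell markers at 459 and 144 CPM, against 120 to 227 CPM in EtOH colon tissue. Of the 10 such markers tested, 3 were higher in EtOH colon organoids than in EtOH colon tissue (Csf1r, Itgam and Cd14) and 5 lower (Itgax, Mrc1, C1qa, C1qb and C1qc), and their part in the members' levels was not tested.

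Colon tissue was then set against jejunum tissue of the same treatment. In EtOH mice 27 of 44 members were lower in colon and 2 higher, where 22.9% of all 13405 genes were lower and 25.5% higher (edgeR's quasi-likelihood test, adjusted p under 0.05). In Control mice 15 of 44 were lower and 5 higher, where 18.5% of all genes were lower and 23.8% higher. All 15 lower calls of Control mice were among the 27 of EtOH mice, while the reverse held for 55.6% of the 27. The members' median log2 fold change was -1.67 in EtOH mice and -0.79 in Control mice, against 0.13 and 0.28 for all genes. Whether the segment difference itself changed with ethanol was tested as an interaction and is given with the ethanol comparisons. Without TMM, the median of all genes would be higher by 0.54 in EtOH and 0.44 in Control mice for colon against jejunum tissue, and by 0.29 in EtOH and 0.21 in Control mice for organoids against tissue in jejunum (log2 scale). The fold changes given are relative to TMM, and the member called with the smallest change in tissue was Eif2ak2 in EtOH mice, at -0.99, and Ifih1 in Control mice, at 0.86.

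By role, 7 of 8 members of the ISG15 and ubiquitin group were lower in colon in EtOH mice and 5 of 8 in Control mice. Ifi35, an interferon-induced leucine zipper protein, had 23, 21, 30.9 and 27.7 CPM in EtOH colon, against 84.8, 116, 113 and 90.1 CPM in EtOH jejunum. It had 27.6, 22.1, 24.7 and 20.9 CPM in Control colon, against 87.8, 120 and 80.8 CPM in Control jejunum. Colon lay below jejunum in every library, by -2.53 ± 0.21 and -2.46 ± 0.23 (edgeR adjusted p = 3.61e-08 and 1.47e-07). Parp9 had 35, 42.2, 33.6 and 30.8 CPM in EtOH colon, against 159, 120, 120 and 141 CPM in EtOH jejunum, and 58.9, 45, 47.2 and 40.8 CPM in Control colon, against 109, 114 and 123 CPM in Control jejunum. Its ranges were apart in both treatments (log2 fold changes -2.49 ± 0.18 and -1.74 ± 0.19, edgeR adjusted p = 5.54e-09 and 1.25e-06). Isg15 had 8.87, 4.75, 6.11 and 7.03 CPM in EtOH colon, against 22.4, 30.8, 18.1 and 12.6 CPM in EtOH jejunum, and 21.1, 17, 6.86 and 12 CPM in Control colon, against 10.9, 17.5 and 15.9 CPM in Control jejunum. It was lower in colon in EtOH mice by -2.20 ± 0.37 (edgeR adjusted p = 9.73e-05), while the Control ranges overlapped, at -0.51 with an edgeR adjusted p of 0.329. Usp18 gave -2.17 ± 0.71 in EtOH mice (edgeR adjusted p = 0.0178) and -0.49 in Control mice (edgeR adjusted p = 0.702). Its EtOH call was lost without EtOH jejunum tissue 3 and without the colon libraries that carry Hoxb13 (-1.53, edgeR adjusted p = 0.148).

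All 3 antigen processing genes were lower in EtOH colon and 2 of 3 in Control colon. Tap1 had 33.4, 46.2, 32.2 and 32.2 CPM in EtOH colon, against 1303.5, 415, 683 and 618 CPM in EtOH jejunum. Control colon had 49.9, 48.6, 47.7 and 36.9 CPM, against 351, 222 and 736 CPM in Control jejunum. No colon library came within the jejunum range (log2 fold changes -4.94 ± 0.41 and -3.76 ± 0.40, edgeR adjusted p = 3.4e-08 and 9.66e-07). Psmb8 was lower in EtOH colon by -2.04 ± 0.37 (edgeR adjusted p = 0.000256) and gave -0.93 in Control mice (edgeR adjusted p = 0.0687), where its colon libraries overlapped the jejunum range.

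Of the 13 other antiviral effectors, 6 were lower and 2 higher in EtOH colon, and 5 lower and 2 higher in Control colon. Apol9a had 2.96, 0.396, 3.06 and 2.05 CPM in EtOH colon, against 65.7, 71.2, 129 and 52.6 CPM in EtOH jejunum, and 2.99, 5.37, 4.39 and 2.44 CPM in Control colon, against 110, 81.8 and 115 CPM in Control jejunum. It had the lowest fold change of the members in both treatments, -5.78 ± 0.46 and -5.26 ± 0.46 (edgeR adjusted p = 2.17e-08 and 8.58e-08), with the sharing with Apol9b noted above. Cmpk2, a mitochondrial nucleotide kinase, had 14.1, 5.94, 18.2 and 19.9 CPM in EtOH colon, against 72.9, 59.8, 108 and 82.6 CPM in EtOH jejunum, and 18, 20.1, 21.1 and 18.3 CPM in Control colon, against 58.8, 107 and 71.5 CPM in Control jejunum. Colon was below jejunum in all libraries (-3.01 ± 0.33 and -2.46 ± 0.34, edgeR adjusted p = 9.01e-07 and 2.06e-05). Bst2 was lower in colon by -2.20 ± 0.41 in EtOH mice and -1.51 ± 0.45 in Control mice (edgeR adjusted p = 0.000292 and 0.0122).

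The 2 members that were called higher in colon in both treatments, Samd9l and Lgals3bp, belong to this role, and Irf7, Ifih1 and Oas1a were called higher in Control mice alone. In EtOH mice Ifih1 and Oas1a were not called, but every colon library was above every jejunum library for both. Samd9l had 52.3, 41.4, 63.3 and 79.8 CPM in EtOH colon, against 17.6, 20.5, 17.1 and 15.9 CPM in EtOH jejunum, and 61.6, 89.6, 58.7 and 70.2 CPM in Control colon, against 24, 10.2 and 11.3 CPM in Control jejunum. Its ranges were apart (1.20 ± 0.30 and 1.69 ± 0.36, edgeR adjusted p = 0.00275 and 0.00107). Lgals3bp had 62.8, 68.5, 146 and 166 CPM in EtOH colon, against 9.52, 34, 44.3 and 30.8 CPM in EtOH jejunum, and 92, 170, 143 and 129 CPM in Control colon, against 14.5, 52.6 and 22.5 CPM in Control jejunum. It too was higher in every colon library (1.34 ± 0.46 and 1.83 ± 0.55, edgeR adjusted p = 0.0251 and 0.0149). Its call was lost without EtOH colon tissue 3 or 4 or EtOH jejunum tissue 1 or 4 in EtOH mice, and without Control jejunum tissue 1 or 3 in Control mice.

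Among the transcription factors Irf9 was lower in both treatments (-1.76 ± 0.21 and -1.36 ± 0.22, edgeR adjusted p = 2.77e-06 and 0.000112). Its EtOH colon libraries had 40.5, 47.1, 52.9 and 53.5 CPM, against 137, 107, 116 and 90.7 CPM in EtOH jejunum. Control colon had 81.3, 74.4, 60.6 and 71.7 CPM, against 144, 105 and 144 CPM in Control jejunum, again apart. Stat2 was lower in EtOH colon (-1.29 ± 0.26, edgeR adjusted p = 0.000601) and not called in Control colon (edgeR adjusted p = 0.171). Irf7 ran the other way in Control mice, with 64.7, 194, 240 and 151 CPM in colon, against 19.6, 59.9 and 36.4 CPM in jejunum. In EtOH mice it had 42.8, 20.8, 116 and 121 CPM in colon, against 29.1, 37.7, 51 and 33.3 CPM in jejunum. The Control ranges were apart (1.70 ± 0.64, edgeR adjusted p = 0.0451) and the EtOH ranges overlapped (0.47 ± 0.54, edgeR adjusted p = 0.497). The Control call was lost under limma-voom, without the filter on low counts and when any of several single libraries was left out, and the gene overlaps Phrf1 on the other strand.

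Of the sensors and RNA effectors, 7 of 12 were lower in EtOH colon and 2 of 12 in Control colon. Zbp1 had 4.32, 4.95, 13.5 and 13 CPM in EtOH colon, against 23.8, 30.3, 45.1 and 37.3 CPM in EtOH jejunum (-2.46 ± 0.47, edgeR adjusted p = 0.000366). In Control mice it had 10.6, 23.5, 9.6 and 8.93 CPM in colon, against 11.6, 16.1 and 31.8 CPM in jejunum, with overlap (edgeR adjusted p = 0.101). Oasl2 had 13.6, 10.1, 8.63 and 11.7 CPM in EtOH colon, against 82.4, 49.7, 70.6 and 53 CPM in EtOH jejunum, and 35, 26.9, 18.4 and 15.6 CPM in Control colon, against 39.9, 70.1 and 64.2 CPM in Control jejunum. Colon was below jejunum in both (-3.09 ± 0.28 and -1.74 ± 0.29, edgeR adjusted p = 8.65e-08 and 0.000119). Ifit1 was lower in EtOH colon (-2.41 ± 0.60, edgeR adjusted p = 0.00421) and gave -0.50 in Control colon (edgeR adjusted p = 0.547). Oas1a, which makes the oligoadenylate messenger, was higher in Control colon at 61.1, 57.1, 38.4 and 42.2 CPM, against 21, 16.1 and 19.9 CPM in Control jejunum (0.88 ± 0.28, edgeR adjusted p = 0.0156).

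Among the GTPases, Iigp1, Irgm1 and Gbp7 were not called in either treatment, Gbp3 and Igtp were lower in EtOH colon, and none of the 5 was called in Control colon. Other cell types differed between the segments too. Smooth muscle and fibroblast markers summed to 2524.0 to 12155.1 CPM in EtOH and 2886.7 to 11251.1 CPM in Control colon, against 227 to 1341.8 CPM in EtOH and 467 to 1847.0 CPM in Control jejunum. T cell markers summed to 1.14 to 30.3 CPM in EtOH and 1.57 to 19.2 CPM in Control colon, against 68.6 to 152 CPM in EtOH and 6.53 to 49 CPM in Control jejunum. Their part in the members' differences was not tested. Calls held under every alternative setting for 24 of 29 members in EtOH mice and 13 of 20 in Control mice.

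In organoids the segment difference ran the other way for many members, but on 2 colon libraries a group. EtOH colon organoids were higher than EtOH jejunum organoids in 13 of 36 members tested and lower in 0, where 25.1% of all 13170 genes were higher and 20.6% lower (edgeR; at an unadjusted p under 0.05, 1 member was lower, and DESeq2 called Epsti1 lower and limma-voom 0). In Control organoids 14 of 36 were higher and 6 lower, where 22.6% of all genes were higher and 26.8% lower. The 2 treatments shared 9 higher members, which is 69.2% of those in EtOH and 64.3% of those in Control organoids. Ddx60, Eif2ak2 and Gbp7 in EtOH organoids were the only calls kept under every alternative setting. Eif2ak2 had 39 and 74.3 CPM in EtOH colon organoids, against 15.9, 21.5, 19.8 and 20.4 CPM in EtOH jejunum organoids (1.43 ± 0.28, edgeR adjusted p = 0.00187). Ddx60 had 7.74 and 31.2 CPM in EtOH colon organoids, against 0.393, 0.457, 1.65 and 1.16 CPM in EtOH jejunum organoids, and the ranges were apart (4.29 ± 0.90, edgeR adjusted p = 0.00262). Ddx60 had 9.82 and 81.9 CPM in Control colon organoids, against 1.29, 3.18, 0.688 and 1.09 CPM in Control jejunum organoids (4.39 ± 0.85, edgeR adjusted p = 0.00135). Some markers of other cells were also higher in EtOH colon organoids than in EtOH jejunum organoids. Called higher were 4 of 4 macrophage and dendritic cell, 4 of 4 smooth muscle and fibroblast and 3 of 4 plasmacytoid dendritic cell markers tested. These lists hold 10, 7 and 5 genes of the count table, so the rest were too low to be tested. Of the macrophage and dendritic cell markers, Itgax, Mrc1, C1qb and C1qc had no count in any EtOH colon organoid library. No gene of the plasmacytoid dendritic cell list was at 0 throughout the EtOH colon organoids. In Control colon organoids its marker Siglech had no count, though the list summed to 232 and 199 CPM there. The macrophage and dendritic cell sum was 459 and 144 CPM in EtOH colon organoids, against 10.9 to 16 CPM in EtOH jejunum organoids, and 83.5 and 50.1 CPM in Control colon organoids, against 11.7 to 13.5 CPM in Control jejunum organoids. Their part in the members' differences was not tested.

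The Control colon organoid libraries disagreed with each other. Irf7 had 13.3 CPM in library 1 and 229 CPM in library 2, Oasl1 had 0 and 79.4 CPM, Oasl2 0 and 36.7 CPM, and Igtp 0 and 47.7 CPM. The reverse held for Ifih1, at 27 CPM in library 1 and 0 in library 2, and for Bst2, at 29.5 and 2.44 CPM. Of the 44 members, 22 were higher in library 2 and 11 in library 1, and 11 had no count in either (Apol9a, Cmpk2, Gbp3, Ifi44, Ifit2, Isg15, Mx1, Mx2, Oas1a, Psmb8 and Sp100). Library 1 held 2036195 and library 2 818240 counts outside Rn45s. Smooth muscle and fibroblast markers summed to 16.7 CPM in library 1 and 128 CPM in library 2, B and plasma cell markers to 17.7 and 117 CPM, Hoxb13 was at 0 and 37.9 CPM, and Muc2, the goblet cell mucin, at 53 and 662 CPM. The part of these in the members' levels was not tested. Without library 2 the colon over jejunum difference in Control organoids was -4.28 for Oasl2, -2.58 for Rsad2 and 0.00 for Iigp1, where both libraries gave 4.30, 5.31 and 6.54. Leaving out 1 organoid library gave 5 to 10 called members in EtOH organoids and 12 to 28 in Control organoids.

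**Figure D4:**
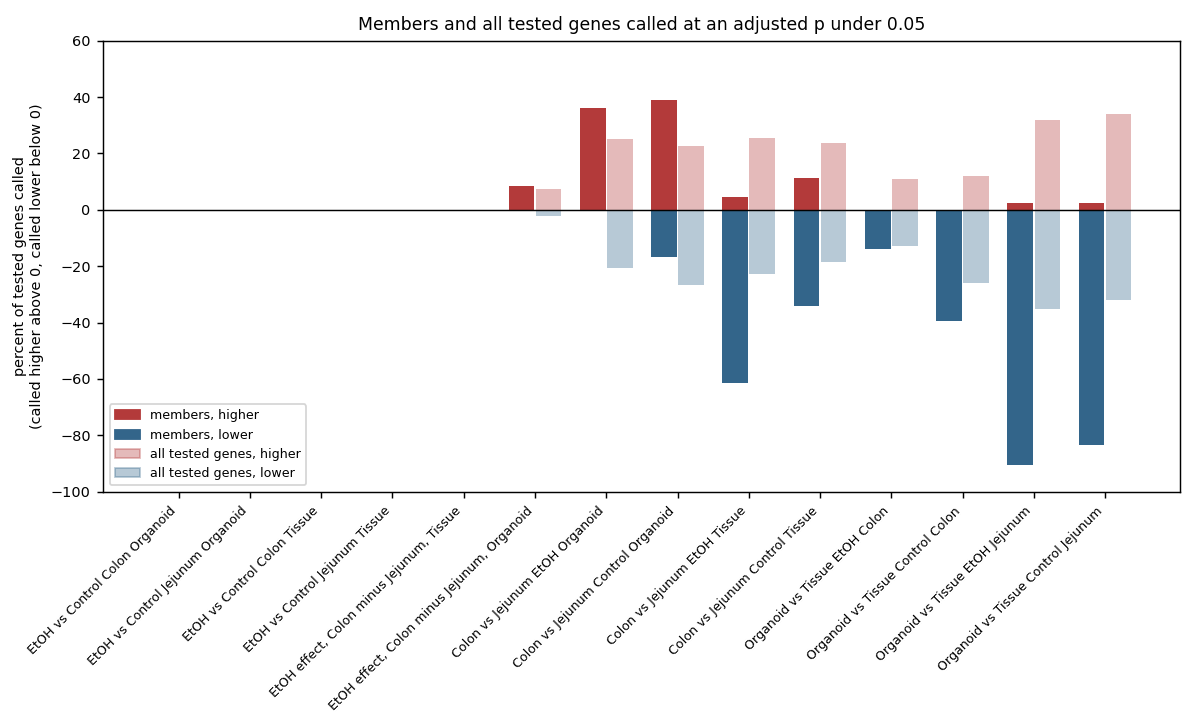
Percent of the members tested (dark bars) and of all genes tested (pale bars) that were called higher (above 0) or lower (below 0) at an adjusted p under 0.05 in each comparison. Members called lower exceed the background in organoids against tissue in jejunum (90.5% against 35.3% in EtOH mice) and in colon against jejunum tissue, and edgeR called no member in the 4 comparisons of EtOH with Control (DESeq2 called Ddx60 in colon tissue).

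Ethanol was compared with water within each kind of sample, which is the comparison the study was built on. In colon tissue most members had lower levels in EtOH mice, but none passed the test. Of 44 members, 36 had a negative log2 fold change (81.8%, against 48.1% of all 13405 genes), with a median of -0.44 against 0.01 for all genes. edgeR called 0 members, where 0.00746% of all genes were called, and 8 members had an unadjusted p under 0.05, all of them negative, where 2.57% of all genes had such a p. These counts, here and in the ethanol comparisons below, come from members read in the same libraries and are not separate observations. They describe the members and test nothing about the list. DESeq2 called 1 member, Ddx60, and limma-voom called 0. The median was negative in all 7 role groups, from -0.28 in the other antiviral effectors and -0.38 in antigen processing to -0.73 in the RNA effectors. In 5 members the EtOH range lay wholly below the Control range (Irf9, Ifih1, Ddx60, Ifit1 and Oasl2, named by this count after their values were seen) and in 0 above it, where 0.903% and 2.39% of all genes did so.

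Ddx60 (chr8:61928087-62038244, plus strand) had 12.5, 6.34, 13.3 and 17.9 CPM in EtOH colon, against 30.2, 54, 39.8 and 49.1 CPM in Control colon. It averaged 12.5 ± 4.74 CPM in EtOH and 43.3 ± 10.5 CPM in Control colon (SD, n = 4 each), with all 4 EtOH libraries below all Control libraries. The log2 fold change was -1.81 ± 0.34, with an edgeR adjusted p of 0.323 and a DESeq2 adjusted p of 0.00656, and the adjusted p ranged from 0.00656 to 1 over the alternatives. Oasl2 had 13.6, 10.1, 8.63 and 11.7 CPM in EtOH colon, against 35, 26.9, 18.4 and 15.6 CPM in Control colon. Its EtOH libraries were likewise all below the Control ones (-1.14 ± 0.27, edgeR adjusted p = 1). Isg15 had 8.87, 4.75, 6.11 and 7.03 CPM in EtOH colon, against 21.1, 17, 6.86 and 12 CPM in Control colon, and overlapped through the Control library at 6.86 CPM (-1.11 ± 0.36, edgeR adjusted p = 1).

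Ifit1 had 12.1, 3.37, 26.8 and 29.6 CPM in EtOH colon, against 32.4, 95, 59.3 and 45.1 CPM in Control colon. The ranges were apart by a narrow gap, at -1.70 ± 0.59 (edgeR adjusted p = 1). Irf9 had 40.5, 47.1, 52.9 and 53.5 CPM in EtOH colon, against 81.3, 74.4, 60.6 and 71.7 CPM in Control colon (-0.58 ± 0.21, edgeR adjusted p = 1). Irf7 had 42.8, 20.8, 116 and 121 CPM in EtOH colon, against 64.7, 194, 240 and 151 CPM in Control colon, and its ranges overlapped (-1.12 ± 0.54, edgeR adjusted p = 1). Ifih1 had 52.1, 55.5, 52 and 56.4 CPM in EtOH colon, against 58.7, 83.4, 68.6 and 69.2 CPM in Control colon, so that the ranges were apart (-0.41 ± 0.21, edgeR adjusted p = 1). Zbp1 gave -0.55 ± 0.46 and Usp18 -0.69 ± 0.73, both with overlap. Bst2 had 17.3, 16.8, 11 and 20.4 CPM in EtOH colon, against 17.3, 18.7, 14.3 and 20.3 CPM in Control colon, and overlapped too.

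Summed by role, the sensors had 96.2, 90.5, 103 and 117 CPM in EtOH colon, against 144, 183, 143 and 156 CPM in Control colon. The RNA effectors had 151, 127, 117 and 135 CPM in EtOH colon, against 217, 252, 185 and 175 CPM in Control colon. Neither sum overlapped, whereas the sums of transcription factors, GTPases, antigen processing, ISG15 genes and other effectors did. The libraries of EtOH colon tissue 1 and 2 and Control colon tissue 1 carried Hoxb13, a gene of the hindmost body axis, at 182, 801 and 183 CPM, and had the lowest Irf7 of their groups. Without these 3 libraries 31 of 44 members had a negative fold change (70.5%, against 48.9% of all genes), the median moved to -0.22, and 5 members had an unadjusted p under 0.05. Ddx60 then gave -1.61 ± 0.38 (edgeR adjusted p = 0.487), Oasl2 -0.99 ± 0.36, Ifit1 -1.25 ± 0.47 and Irf7 -0.72 ± 0.33. This setting was chosen after seeing the data, and the part of the position along the colon in the members' levels was not tested. T cell markers summed to 1.14, 3.96, 13.7 and 30.3 CPM in EtOH colon, against 1.57, 15, 19.2 and 17.9 CPM in Control colon.

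**Figure D5:**
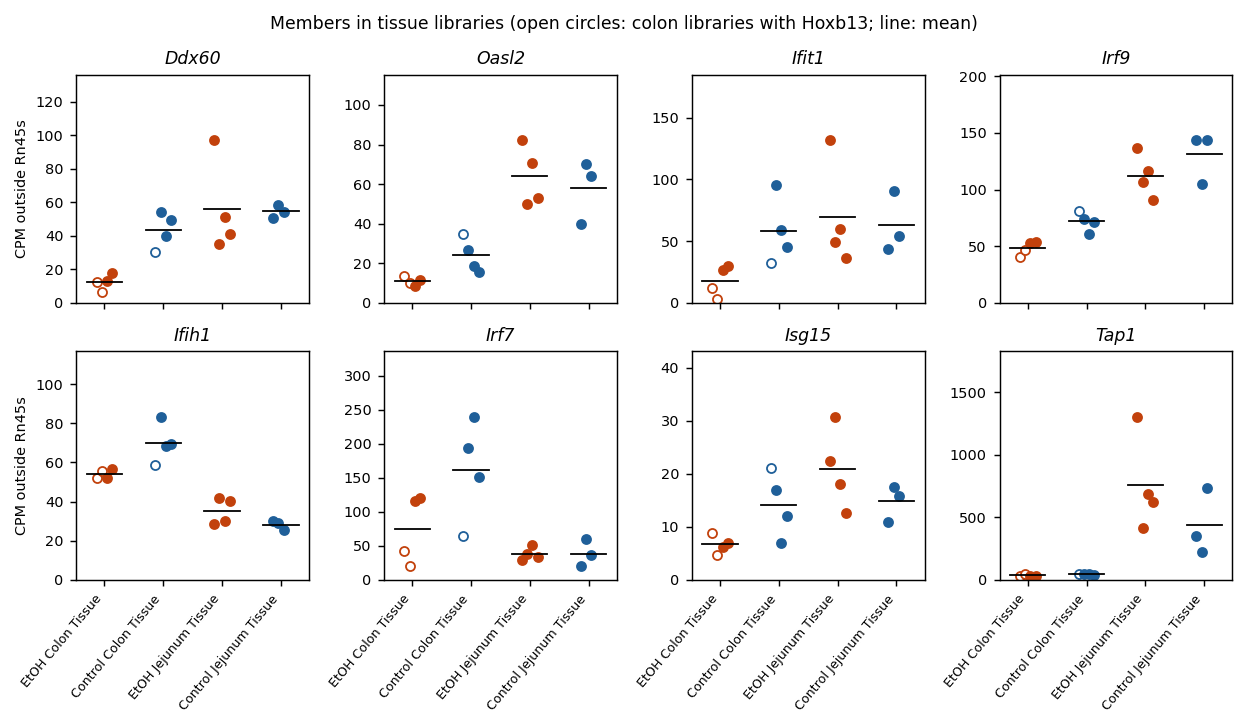
CPM outside Rn45s of 8 members in each tissue library (points) with the group mean (line), EtOH groups left of their Control groups, and colon libraries that carry Hoxb13 as open circles. Ddx60, Oasl2, Ifit1, Irf9 and Ifih1 do not overlap between EtOH and Control colon tissue, and all 8 members plotted overlap between EtOH and Control jejunum tissue. Those 5 are the only ones of the 44 members whose colon ranges were apart, and they were named after their values were seen.

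In jejunum tissue no member was called either (edgeR 0 of 44, where 0% of all genes were called, DESeq2 0 and limma-voom 0), and 2 had an unadjusted p under 0.05, both positive, where 11.2% of all genes had such a p. Of the 44 members, 33 had a positive log2 fold change with TMM scaling and 26 with RLE size factors or DESeq2, with a median of 0.18 against 0.15 for all genes under TMM and 0.05 against 0.02 under RLE. Psmb9 had 63.8, 53.1, 98.9 and 91.8 CPM in EtOH jejunum, against 39.2, 35 and 37.7 CPM in Control jejunum. It was the 1 member whose EtOH range lay above the Control range (1.11 ± 0.34, edgeR adjusted p = 0.231), where 5.69% of all genes did so. Igtp had 38.1, 40.6, 148 and 63.9 CPM in EtOH jejunum, against 8.71, 4.38 and 43 CPM in Control jejunum, and overlapped through the Control library at 43 CPM (1.90 ± 0.65, edgeR adjusted p = 0.288). Tap1 had 1303.5, 415, 683 and 618 CPM in EtOH jejunum, against 351, 222 and 736 CPM in Control jejunum, with overlap (0.79 ± 0.38, edgeR adjusted p = 0.453). T cell markers summed to 68.6, 101, 94.6 and 152 CPM in EtOH jejunum, against 6.53, 33.6 and 49 CPM in Control jejunum, and B and plasma cell markers to 336, 396, 247 and 499 CPM in EtOH jejunum, against 110, 68.6 and 94 CPM in Control jejunum. Neither sum overlapped between the groups, no marker of either passed the test, and their part in the members' levels was not tested.

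The ethanol difference was then tested between segments. In tissue no member differed between colon and jejunum in its ethanol fold change (edgeR 0 of 44, where 0% of all genes were called, DESeq2 0, limma-voom 0, and 8 at an unadjusted p under 0.05, as for 6.36% of all genes). The colon minus jejunum value was negative for 38 of 44 members (86.4%, against 61.2% of all genes), with a median of -0.63 against -0.15, and the smallest edgeR adjusted p was 0.557 for Ddx60. The same test asks whether the segment difference changed with ethanol. The larger number of colon calls in EtOH mice is therefore not shown to differ from that in Control mice.

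In jejunum organoids ethanol went with no called member (edgeR 0 of 20 tested, where 0% of all genes were called, DESeq2 0, limma-voom 0, and 0 at an unadjusted p under 0.05). The other 24 members were too low to be tested. Oas1a had the smallest p, with 6.49, 7.99, 10.2 and 11.6 CPM in EtOH organoids, against 7.18, 4.16, 5.96 and 6.52 CPM in Control organoids (0.57 ± 0.27, edgeR adjusted p = 0.703). Irf9 gave 0.28 ± 0.20 and Oasl1 0.34 ± 0.25. Lgals3bp was the 1 member whose EtOH range lay above the Control range, at 0.12 ± 0.10, where 1.58% of all genes did so.

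In colon organoids 24 members could be tested and none was called (edgeR 0, where 0% of all genes were called, DESeq2 0, limma-voom 0, and 0 at an unadjusted p under 0.05). Stat2 had 16.2 and 21.6 CPM in EtOH organoids, against 6.88 and 6.11 CPM in Control organoids (1.77 ± 1.48, edgeR adjusted p = 0.94). Dtx3l had 28.5 and 37.2 CPM in EtOH organoids, against 62.4 and 92.9 CPM in Control organoids (-0.97 ± 0.62, edgeR adjusted p = 0.86). With 2 libraries a group, the ranges were apart for 3 members on the higher side (Stat2, Ddx58 and Parp9) and 2 on the lower (Dtx3l and Tap1), as they were for 20.1% and 21.6% of all genes. Ifi35 had 24.3 and 11.2 CPM in EtOH organoids, against 16.7 and 99 CPM in Control organoids, and overlapped (-1.34 ± 1.08, edgeR adjusted p = 0.935). Fitting all 12 organoid libraries together called 4 members higher in EtOH colon organoids (Cmpk2, Ifi44, Oas1a and Psmb8), each without a count in both Control libraries. The share of all genes called in that fit is not set beside this count, which therefore says nothing particular about the members. The fit without Control colon organoid 1 rests on 1 Control library. Its calls (Ifih1 and Parp9 higher, Irf7 and Oasl1 lower) are not read as a result.

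The colon minus jejunum difference of the ethanol effect in organoids called 3 of 36 members, all higher, where 7.4% of all genes were called higher and 2.09% lower. They were Oas1a (8.01 ± 1.70), Ifi44 (8.60 ± 2.29) and Psmb8 (7.80 ± 1.54), with edgeR adjusted p of 0.0158, 0.039 and 0.0113. Oas1a had 5.27 and 25.3 CPM in EtOH colon organoids, against 0 and 0 CPM in Control colon organoids. Psmb8 had 10.5 and 4.46 CPM and Ifi44 6.68 and 4.46 CPM in EtOH colon organoids, and neither had a count in Control colon organoids. With no count in the Control colon group, these fitted values depend on the prior count and bound nothing, and limma-voom with a spread per group called 0 of the 36. Ifi44 was called in 5 of 18 alternative fits, and lost its call without the filter on low counts, under the replicate block and without either EtOH colon organoid or any 1 jejunum organoid library, whereas Oas1a was called in 17 of 18 and Psmb8 in 16 of 18.

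Other genes of the pathway were followed from lists set by role. Their counts are to be read against the share of all genes called, which for organoids against tissue in jejunum was 35.3% lower and 31.7% higher in EtOH mice and 31.9% lower and 34.1% higher in Control mice, and for colon against jejunum tissue 22.9% lower and 25.5% higher in EtOH mice and 18.5% lower and 23.8% higher in Control mice. None of the 19 interferon genes in the table, type I, type III or gamma, had enough counts to be tested, and their sum ran from 0 to 2.23 CPM over all libraries. Of the 6 receptor subunits, 5 were lower and 0 higher in EtOH jejunum organoids than in EtOH tissue, and 2 lower and 0 higher in Control mice. Ifnlr1, the type III interferon receptor, had 12.6, 10.5, 13.2 and 13.4 CPM in EtOH organoids, against 57.6, 68.8, 48.2 and 50.4 CPM in EtOH tissue. Control organoids had 11.2, 13.7, 6.88 and 8.69 CPM, against 59.5, 23.4 and 63.6 CPM in Control tissue, so that the ranges were apart in both treatments (-2.46 ± 0.28 and -2.55 ± 0.31, edgeR adjusted p = 1.48e-07 and 3.83e-07). Its partner chain Il10rb gave -2.67 ± 0.22 and -2.41 ± 0.23. In colon against jejunum tissue 6 of 6 receptor subunits were lower in EtOH mice and 4 of 6 in Control mice, Ifnlr1 by -2.43 ± 0.31 and -2.33 ± 0.33.

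Of 20 induction and signalling genes tested, 14 were lower and 2 higher in EtOH jejunum organoids than tissue, and 12 lower and 3 higher in Control mice. Irf1, a factor induced by interferon gamma that drives antigen processing genes, had 38.5, 45.5, 57 and 62.8 CPM in EtOH organoids, against 1384.9, 929, 1285.5 and 1151.4 CPM in EtOH tissue. Control organoids had 47.3, 54.4, 56.4 and 52.1 CPM, against 938, 600 and 1691.3 CPM in Control tissue, far below in every library (-4.84 ± 0.30 and -4.60 ± 0.30, edgeR adjusted p = 2.42e-11 and 6.7e-11). Irf3, the constitutive factor upstream of interferon, was higher in organoids (1.53 ± 0.28 and 1.10 ± 0.33). Irf1 was also lower in colon than jejunum tissue, by -2.80 ± 0.36 in EtOH mice and -2.08 ± 0.36 in Control mice, among 13 of 20 lower and 2 higher in EtOH mice and 10 lower and 3 higher in Control mice. Socs1, an inhibitor of JAK kinases, was lower in jejunum organoids than tissue (-4.48 ± 0.55 and -3.72 ± 0.58), among 3 lower and 2 higher of 6 inhibitors in each treatment. Of 45 further interferon-stimulated genes tested, 36 were lower and 5 higher in EtOH jejunum organoids than tissue, and 33 lower and 4 higher in Control mice. In Control mice Oas3, a large oligoadenylate synthetase, gave -8.92 ± 0.63 and Ifitm2, a membrane restriction factor, 3.06 ± 0.33. Of 49 tested in colon against jejunum tissue, 23 were lower and 7 higher in EtOH mice, and 17 lower and 8 higher in Control mice. For ethanol against water edgeR called 0 genes of these lists in tissue, and in colon tissue 6 of 49 further interferon-stimulated genes and 0 of 20 induction and signalling genes had an unadjusted p under 0.05, where 2.57% of all genes did. In jejunum tissue 6 of 49 and 6 of 20 did, where 11.2% of all genes did.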

How the data were processed

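The authors deposited 1 table of raw counts per gene for 27 libraries, made with a QuantSeq 3′ kit per the labels' protocols. Per the submitters' processing notes, Trimmomatic 0.32, BWA, HTSeq, limma and edgeR were used with mm10. The sources used here do not say whether counting used strand. Groups came from the labels, which number the donors.

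CPM were computed outside Rn45s. Tests used edgeR 4.0.16 (R 4.3.3) quasi-likelihood fits with robust dispersion, TMM, filterByExpr without Rn45s, two-sided, with Benjamini-Hochberg adjustment over all genes kept and a threshold of 0.05. Ethanol in organoids was fitted per segment (4 and 8 libraries), tissue comparisons on 15 libraries, organoid segment comparisons on 12, and organoids against tissue per segment on 12 and 15. The SE is the fold change divided by the root of F. The fits were tested on simulated counts with known changes. Where a group had no count, a bound was set with a floor of 3 counts over that group. Floors cover counting error only. The filter asks for enough counts in about as many libraries as the smallest group holds, so a member may pass through 1 group alone.

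The members, gene lists and comparisons were chosen with earlier results of these data known. Values per library are given for 12 members fixed by name and for the leading member of each role. The rule added up to 4 highest and 4 lowest called members of a comparison with a mean of at least 10 CPM in a group (with none called, the 3 smallest p). A few others are said to be chosen after their values were seen or were named to make up a count. Ddx58, Epsti1, Irgm1 and Gbp3 are among those added in comparisons where the rule did not pick them.

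Alternatives were RLE size factors, DESeq2 1.42.0, limma-voom (limma 3.58.1) with a spread per group, no filter, Rn45s kept, another choice of libraries, the donor number as a replicate block, each library left out, and, added after seeing the data, colon tissue libraries with Hoxb13 of at least 50 CPM left out. Donor numbers 1 to 4 recur under both treatments, though a mouse had 1 treatment. The check for pairing asked for a correlation over 0.1 in every pair of same-numbered libraries, with at least 3 pairs. Only EtOH against Control jejunum tissue met it (correlations 0.140 to 0.161 over 3 pairs), and there the block called 0 members as without it. Comparisons with colon organoids hold 2 pairs each and could not meet it. In EtOH against Control colon tissue the correlations ran from -0.191 to 0.624 over 4 pairs. Replicates of a group differed by 2.94 to 88.8 times the variance that sampling gives over 35 pairs, so none was counted as a repeat. Coordinates are from GENCODE vM21 and promoters from RefSeq (both GRCm38).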

Additional observations from a re-analysis of the deposited data

Results flagged for a closer look

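Among 98 tests of single genes and summed levels in groups of 4 libraries, 7 had a library whose gap to the next was over Dixon's critical share of the group's range (chance alone gives about 1 in 20). The GTPase sum was 165 CPM in Control colon tissue 1, against 60.5 to 73.1 CPM in the other 3, and Iigp1 was 36.2 CPM in that library, against 5.49 to 10.1 CPM. That is 1 of the libraries with Hoxb13. The ISG15 group summed to 195 CPM in EtOH colon tissue 4, against 174 to 175 CPM. Zbp1 was 23.5 CPM in Control colon tissue 2, against 8.93 to 10.6 CPM, and 0.197 CPM in EtOH jejunum organoid 1, against 0 CPM in the other 3. Tap1 was 46.2 CPM in EtOH colon tissue 2, against 32.2 to 33.4 CPM, and 36.9 CPM in Control colon tissue 4, against 47.7 to 49.9 CPM.

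By a test of the difference itself, edgeR called another EtOH over Control fold change in colon than in jejunum organoids for Oas1a (8.01 on the log2 scale, edgeR adjusted p = 0.0158), Ifi44 (8.60, edgeR adjusted p = 0.039) and Psmb8 (7.80, edgeR adjusted p = 0.0113). These were 3 of 36 members tested (8.33%), near the 7.4% of all genes called higher. All 3 had no count in the 2 Control colon organoid libraries, and limma-voom with a spread per group kept no call. The call held in 17 of 18 alternative fits for Oas1a, 16 of 18 for Psmb8 and 5 of 18 for Ifi44.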

How the results depend on the processing

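Counts of members called were compared over 14 comparisons and 210 alternative fits, of which 180 stayed within 1.5 times the count given above. Those of organoids against tissue in jejunum and colon against jejunum in tissue all did. In EtOH against Control, the fit of all organoid libraries called 4 members in colon organoids and DESeq2 called 1 in colon tissue. The ethanol difference between organoid segments gave 5 members with DESeq2 and 0 with limma-voom. Colon against jejunum in Control organoids gave 1 with limma-voom and 10 with only the libraries compared. Organoids against tissue in colon gave 10 with DESeq2, 2 with limma-voom and 3 without the Hoxb13 libraries in EtOH mice, and 0 with limma-voom in Control mice. The share of all genes called in each fit is not set beside these counts, so they show only how far the member counts moved. The cause was not tested.

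With the donor number as a replicate block, counts were 1 for the ethanol difference between organoid segments, 6 and 0 for colon against jejunum in EtOH and Control organoids, and 2 and 0 for organoids against tissue in EtOH and Control colon. The check for pairing could not decide there. These segment and organoid comparisons hold 2 pairs of same-numbered libraries each, fewer than the check asks for, and the ethanol difference was not checked. Whether donor numbers pair those libraries is therefore not known. In no other comparison did the block move a count beyond 1.5 times.

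Leaving out 1 library gave 0 to 4 called members for EtOH against Control colon organoids, 2 to 14 for the ethanol difference between organoid segments, 5 to 10 and 12 to 28 for colon against jejunum in EtOH and Control organoids, 26 to 28 and 17 to 20 in EtOH and Control tissue, 2 to 5 and 16 to 28 for organoids against tissue in EtOH and Control colon, 39 and 36 to 38 in EtOH and Control jejunum, and 0 in the others. Leaving out single libraries gave 0.29 (without Control colon organoid 2) and -2.08 (without 1) for Ifi35 in EtOH against Control colon organoids, and in colon against jejunum Control organoids -4.28 and 5.36 for Oasl2, -2.58 and 6.39 for Rsad2, and 0.00 and 7.69 for Iigp1. Of 1458 refits of single genes, 137 lost their call, 1 gained one and 4 turned. Depth limits members at low levels, most of all in the shallowest libraries. Control jejunum tissue 2 and Control colon organoid 2 held 684906 and 818240 counts outside Rn45s. There 3 counts equal 4.38 and 3.67 CPM, against 0.394 CPM in the deepest library, EtOH jejunum tissue 4.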
